A study of Mus musculus with 6 samples.

Results

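The pyruvate dehydrogenase genes are 10 genes of mitochondrial fuel choice that were taken by symbol from the deposited table of interscapular brown fat: 4 subunits of the complex (Pdha1, Pdhb, Dlat and Pdhx), the 4 kinases that switch it off (Pdk1, Pdk2, Pdk3 and Pdk4) and the 2 phosphatases that switch it on (Pdp1 and Pdp2). All 10 were found among the 35975 rows with counts, and all 10 were among the 13573 genes with enough counts to be tested. Olfm4CKO mice carry floxed Olfm4 alleles and Cre under the control of Ucp1, a gene of brown adipocytes, on a C57BL/6 background, so cells of the depot that do not use Ucp1 are not targeted. Ctrl mice have the same background. The titles of the Olfm4CKO libraries begin with KO but end in Olfm4 WT, as the Ctrl titles do. The groups here follow the genotype label. The labels give no age or sex, do not say whether Ctrl mice carry the Cre transgene or the floxed alleles, and do not say whether a library is 1 mouse or a pool, so Cre and loss of Olfm4 cannot be told apart as sources of a difference. Messenger RNA was sequenced from 3 libraries per group by the labels, but the replicate 3 columns do not follow the gene names beside them, so every value below comes from Olfm4CKO replicates 1 and 2 and Ctrl replicates 1 and 2.

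Pyruvate dehydrogenase turns pyruvate from glycolysis into acetyl-CoA inside mitochondria, a step that cannot be undone in animal cells. The kinases phosphorylate the alpha subunit of its first enzyme and stop it, and the phosphatases remove that phosphate. Brown fat burns fatty acids and glucose to make heat, and Pdk4, the kinase induced in fasting and by fatty acids, is known to be expressed at a high level in this tissue.

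Total counts were 15547569 and 15346705 in Olfm4CKO replicates 1 and 2 and 15953676 and 17309325 in Ctrl replicates 1 and 2. Olfm4, the deleted gene, had 0 counts in all 4 libraries, which allows up to 0.193 and 0.195 CPM in Olfm4CKO and up to 0.188 and 0.173 CPM in Ctrl, counting error only, so it does not check the genotype labels. All 8 brown adipocyte markers were detected in every library, with a summed level of 18350 and 10560 CPM in Olfm4CKO and 17560 and 22760 CPM in Ctrl. Among them, Ucp1 had 4815 and 2944 CPM in Olfm4CKO, against 5885 and 10210 CPM in Ctrl. Both Olfm4CKO values lay below both Ctrl values, as for 12.8% of all genes tested, and the groups overlapped for the remaining markers. Of the other marker lists, 10 skeletal muscle genes summed to 168 and 25.6 CPM in Olfm4CKO and 79.1 and 39.4 CPM in Ctrl, with 8 of the 10 detected in every library, and 6 macrophage genes to 154 and 209 CPM in Olfm4CKO and 143 and 376 CPM in Ctrl. The groups stood apart for 2 lists: 5 endothelial genes summed to 1307 and 1187 CPM in Olfm4CKO and 815 and 768 CPM in Ctrl, and 5 Schwann cell genes to 81.8 and 86.8 CPM in Olfm4CKO and 180 and 331 CPM in Ctrl, each gene detected in every library. Within these 2 lists, the groups overlapped for the single genes Pecam1, Emcn and Sox10. Of all genes tested, 24.6% did not overlap between the groups. The part of these cell types in the values below was not tested. Y-linked transcripts were counted in Ctrl replicate 1 (175 CPM over 4 genes, 0 counts in the other three), and Xist stood at 215 and 207 CPM in Olfm4CKO and at 0 and 49.5 CPM in Ctrl. CPM here is a count scaled to a common library size after TMM correction.

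No pyruvate dehydrogenase gene passed the threshold between Olfm4CKO and Ctrl. In edgeR's quasi-likelihood test, 0 of 10 stayed under 0.05 after Benjamini-Hochberg adjustment (adjusted p = 0.9998 for each), beside 0 of all 13573 genes tested (0%). At an unadjusted p below 0.05 there were 0 of the 10 genes and 287 of all genes (2.11%), and DESeq2 called 0 of the 10 and 1 of all 13573, limma-voom 0 of the 10 and 0 of all. The log2 fold changes (Olfm4CKO over Ctrl) ran from -0.44 for Pdk4 to 0.07 for Pdp1, with a median of -0.13 over the 10 genes and -0.01 over all genes tested. Of the 10, 8 lay below 0, beside 51.4% of all genes. That count moved with single libraries: 3 of the 10 lay below 0 without Olfm4CKO replicate 1, where the median was 0.059, and 9 without Olfm4CKO replicate 2, where it was -0.35, and it was 8 without Ctrl replicate 1 and 6 without Ctrl replicate 2. The 95% intervals of the fit spanned 0 for each of the 10 genes, with a median half-width of 0.88 on the log2 scale. The widest was that of Pdk3, the gene with the fewest counts (-1.68 to 1.19). For 1 gene in 2 against 2 libraries, the smallest p of an exact permutation test (two-sided) is 0.333. Whether each library stands for its own mouse is not stated, and the p-values cover the spread between these libraries alone.

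**Figure D1:**
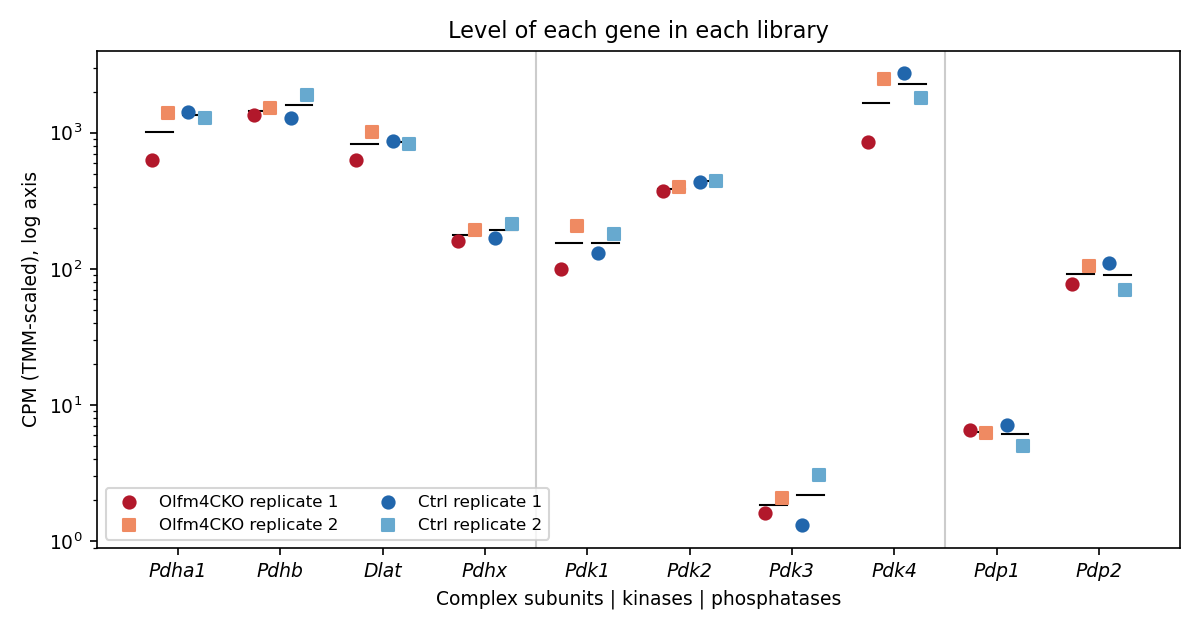
TMM-scaled CPM on a log axis for each of the 10 genes, with Olfm4CKO libraries (red and orange) left of Ctrl libraries (dark and light blue) and a black bar at each group's mean. Pdk4 spans 859 to 2729 CPM, with Olfm4CKO replicate 1 lowest, while the 4 values of Pdk2 lie between 372 and 446 CPM.

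The 4 subunits of the complex were abundant, and the groups overlapped for each of them. Pdha1, the X-linked alpha subunit of the first enzyme, E1, and the target of the kinases, lies on chromosome X at 160122209 to 160138413, minus strand (GRCm38, as for all positions). It had 627 and 1395 CPM in Olfm4CKO replicates 1 and 2, against 1430 and 1285 CPM in Ctrl replicates 1 and 2. Olfm4CKO replicate 1 was the low library, and Olfm4CKO replicate 2 lay between the Ctrl libraries, so the groups overlapped. In whole tissue, fewer cells of a type and less RNA per cell cannot be told apart. The log2 fold change was -0.43 ± 0.44 (SE; 95% interval -1.39 to 0.54). Leaving out Olfm4CKO replicate 1 gave 0.06, and leaving out Olfm4CKO replicate 2 gave -1.12, where the unadjusted p was 0.0228 and the edgeR adjusted p 0.824. It was -0.35 without Ctrl replicate 1, which held the Y-linked transcripts. The part of sex in these values was not tested. Exons of Pdha1 share 603 bases with Map3k15 on the opposite strand, which had 22 to 30 counts per library. Pdha2, the testis form of the alpha subunit, had 0 counts in every library.

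Pdhb, the beta subunit of E1 (chromosome 14, 8165996 to 8173025), did not share the low value. It had 1360 and 1509 CPM in Olfm4CKO, against 1286 and 1899 CPM in Ctrl, with a log2 fold change of -0.15 ± 0.38 (SE). Both Olfm4CKO libraries lay between the Ctrl libraries. Alpha and beta subunits occur in equal number in the E1 protein, but their transcripts did not keep one ratio here. Per kilobase of exon, the Pdha1 level over the Pdhb level was 0.477 and 0.956 in Olfm4CKO and 1.15 and 0.700 in Ctrl.

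Dlat, the E2 acetyltransferase that forms the core of the complex (chromosome 9, 50634633 to 50659780), had 635 and 1008 CPM in Olfm4CKO, against 874 and 826 CPM in Ctrl. The Olfm4CKO libraries lay on either side of both Ctrl libraries, and the log2 fold change was -0.05 ± 0.38 (SE). Pdhx, the protein that tethers the E3 enzyme to that core (chromosome 2, 103021075 to 103073513), had 160 and 194 CPM in Olfm4CKO, against 169 and 215 CPM in Ctrl (-0.12 ± 0.35 SE). Its groups overlapped, and its highest library was 1.34 times its lowest. Per kilobase, Dlat stood 3.19 and 4.19 times above Pdhx in Olfm4CKO and 4.15 and 3.10 times in Ctrl.

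Pdk4 had the highest mean level of the 10 genes per kilobase of annotated exon, and the widest swing between libraries. The kinase (chromosome 6, 5483351 to 5496309, minus strand) had 859 and 2470 CPM in Olfm4CKO replicates 1 and 2, against 2729 and 1800 CPM in Ctrl replicates 1 and 2. Olfm4CKO replicate 1 was again the low library, 3.18 times below Ctrl replicate 1, and Olfm4CKO replicate 2 lay between the Ctrl libraries. The group means were 1665 ± 1139 CPM in Olfm4CKO and 2265 ± 657 CPM in Ctrl (SD, n = 2 each). The log2 fold change of -0.44 ± 0.50 (SE; 95% interval -1.55 to 0.67) did not pass. Leaving out Olfm4CKO replicate 1 gave 0.15, leaving out Olfm4CKO replicate 2 gave -1.40 (unadjusted p = 0.00792, edgeR adjusted p = 0.628), and leaving out Ctrl replicate 1 gave -0.11. Olfm4CKO replicate 1 also held the highest summed level of skeletal muscle markers, a tissue in which Pdk4 is abundant, at 168 CPM beside 25.6 to 79.1 CPM in the other libraries. The part of muscle RNA in these values was not tested.

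The other kinases did not follow one pattern. Pdk1, the kinase induced by hypoxia (chromosome 2, 71873224 to 71903858), had 100 and 208 CPM in Olfm4CKO, against 130 and 180 CPM in Ctrl. The Olfm4CKO libraries were both the lowest and the highest, and the log2 fold change of -0.01 ± 0.41 (SE) lay above 0 with each of 3 other scalings. Pdk2, the most widely expressed kinase (chromosome 11, 95026258 to 95041354), had 372 and 400 CPM in Olfm4CKO, against 433 and 446 CPM in Ctrl. It was the single member of the 10 whose groups did not overlap, beside 24.6% of all genes tested. Its log2 fold change was -0.19 ± 0.35 (SE; 95% interval -0.95 to 0.57) and lay between -0.25 and -0.12 when any 1 library was omitted. Pdk3 (chromosome X, 93764607 to 93832201) was near the limit of counting, with 25 and 33 counts in Olfm4CKO, against 21 and 52 counts in Ctrl. For its 25 counts the exact Poisson 95% interval is 16.2 to 36.9, counting error only. Its log2 fold change was -0.24 ± 0.65 (SE), and 0.51 without Ctrl replicate 2.

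Both phosphatases had close group means. Pdp2, the insulin-responsive phosphatase (chromosome 8, 104591451 to 104599026), had 77.7 and 105 CPM in Olfm4CKO, against 111 and 69.8 CPM in Ctrl, a log2 fold change of 0.02 ± 0.37 (SE). Both Olfm4CKO values lay between those of Ctrl. Pdp1, the calcium-activated phosphatase that is abundant in muscle (chromosome 4, 11958184 to 11966452), had 6.52 and 6.30 CPM in Olfm4CKO, against 7.20 and 5.04 CPM in Ctrl (0.07 ± 0.44 SE). These values rest on 85 to 115 counts per library. Pdp2 made up 90.4% and 93.0% of the phosphatase level per kilobase in Olfm4CKO and 92.4% and 91.6% in Ctrl, so Pdp2 was the main phosphatase transcript in each of the 4 libraries.

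**Figure D2:**
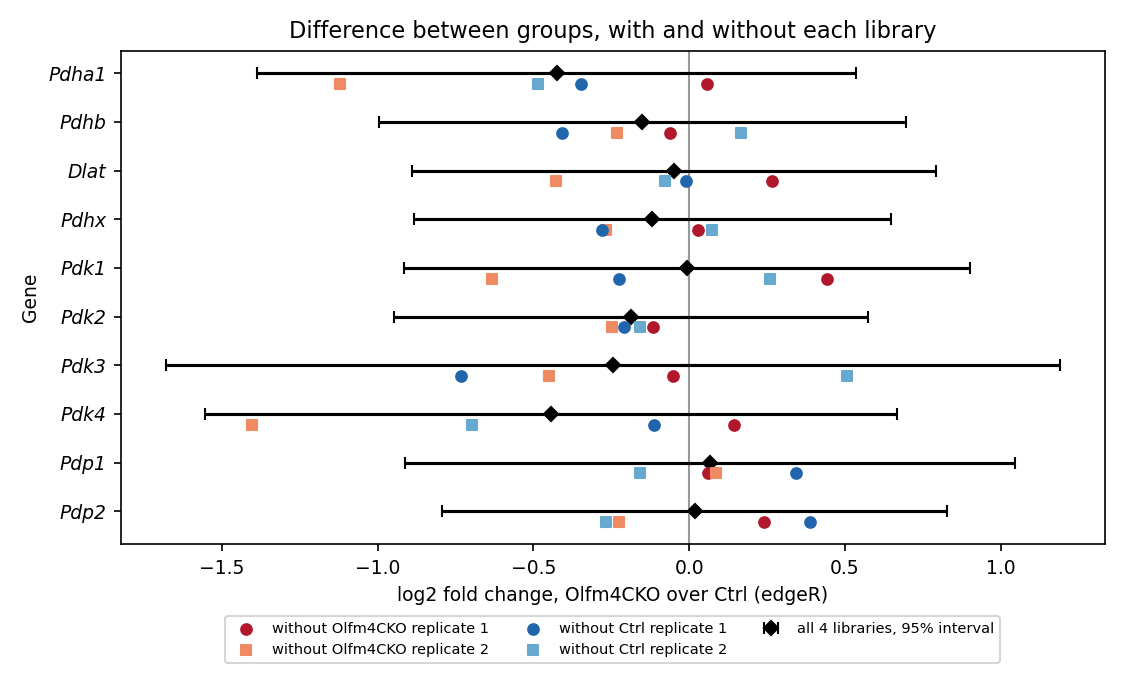
The log2 fold change (Olfm4CKO over Ctrl, edgeR) of each gene from all 4 libraries with its 95% interval (black), and from the fits that leave out 1 library (coloured points). Every interval spans 0, and for Pdha1, Dlat, Pdk1 and Pdk4 the point without Olfm4CKO replicate 1 lies above 0 while the point without Olfm4CKO replicate 2 lies furthest below it.

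Levels can be set side by side between genes per kilobase of exon, from the union of annotated exons in GENCODE vM21. That length counts the exons of every annotated transcript, 3 for Pdk4 and 7 for Pdhb. Whether the order holds for the transcripts present in these libraries was not tested. The mean CPM per kilobase over the 4 libraries was 560 for Pdk4, 392 for Pdhb, 317 for Pdha1, 171 for Dlat, 131 for Pdk2, 46.9 for Pdhx, 19.9 for Pdk1, 16.0 for Pdp2, 1.39 for Pdp1 and 0.792 for Pdk3. The ranges over the libraries were separate between Pdk2 and Pdhx, between Pdhx and Pdk1 and between Pdp2 and Pdp1. The ranges of the other neighbours in this order overlapped, although Pdha1 was above Dlat and Dlat above Pdk2 in all 4 libraries. Pdk4 was above Pdhb in 3 of 4, with Olfm4CKO replicate 1 as the exception.

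Within the kinases, Pdk4 took most of the transcript level in each of the 4 libraries. Its share of the summed kinase level per kilobase was 65.1% and 82.0% in Olfm4CKO and 83.4% and 75.6% in Ctrl, a mean of 73.6% ± 12.0 in Olfm4CKO and 79.5% ± 5.53 in Ctrl (SD, n = 2 each). Pdk2 took 31.3% and 14.8% in Olfm4CKO and 14.7% and 20.8% in Ctrl, and Pdk1 3.43% and 3.12% against 1.80% and 3.42%. The groups overlapped for each of the 4 kinases. Summed kinase level over summed phosphatase level was 24.9 and 43.1 in Olfm4CKO and 44.2 and 50.6 in Ctrl. These ratios did not overlap, but Olfm4CKO replicate 2 and Ctrl replicate 1 lay close together, and the ratio was chosen with the values known and was not tested. Summed kinase level over the summed level of the 4 subunits was 0.544 and 0.841 in Olfm4CKO and 0.993 and 0.640 in Ctrl, and overlapped. Such ratios within a library do not depend on the scaling between libraries.

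**Figure D3:**
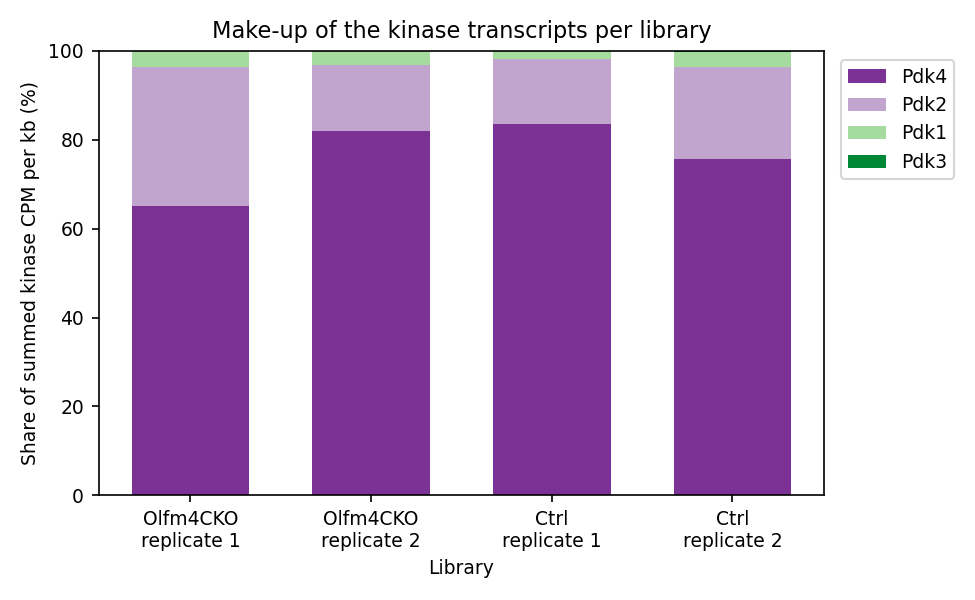
Share of the summed kinase level (CPM per kilobase of exon, in percent) taken by each kinase in each library, Olfm4CKO left of Ctrl. Pdk4 takes 65.1% in Olfm4CKO replicate 1 and 75.6% to 83.4% in the other 3 libraries, and Pdk2 fills most of the remainder.

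Low values of several members fell in the same library. Olfm4CKO replicate 1 was the lowest of the 4 libraries for 6 of the 10 genes (Pdha1, Dlat, Pdhx, Pdk1, Pdk2 and Pdk4), beside 27% of all genes tested. Its CPM was at most 0.5 times that of Olfm4CKO replicate 2 for 3 of the 10, Pdk4 (0.348), Pdha1 (0.450) and Pdk1 (0.482), beside 8.51% of all genes. The median log2 ratio of replicate 1 over replicate 2 in Olfm4CKO was -0.41 for the 10 genes and 0.01 for all genes tested. Without regard to sign, the median ratio was 0.41 for the 10 genes and 0.46 for all genes in Olfm4CKO, and 0.49 and 0.42 in Ctrl. In Ctrl, Pdk3 was the single member that differed 2-fold or more between replicates, beside 15.8% of all genes.

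**Figure D4:**
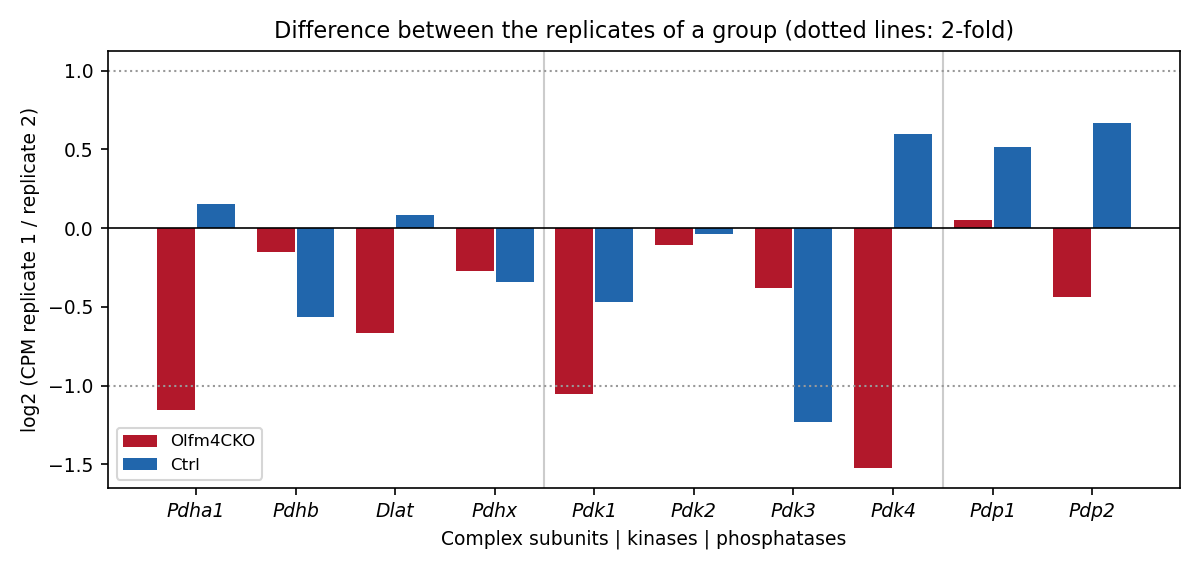
The log2 ratio of CPM in replicate 1 over replicate 2 for each gene, in Olfm4CKO (red, left bar) and Ctrl (blue, right bar), with dotted lines at a 2-fold difference. Pdha1, Pdk1 and Pdk4 pass the lower line in Olfm4CKO and Pdk3 does so in Ctrl, while Pdk2 lies near 0 in both groups.

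The promoters are shown for Pdk4, for Pdha1, the member nearest to it in profile over the 4 libraries, and for Pdk2, whose level moved least. Each window runs from 250 bases before to 50 bases after the RefSeq start site, minus strand of GRCm38.p6, read 5′ to 3′ along the gene. Capitals mark matches, on either strand, to 5 motifs, which do not overlap one another in these windows. They are the TATA box with the letters TATAAA, the box named for its letters CCAAT, the GC box with GGGCGG, a half-site of the ERR receptors with AAGGTCA and the site of FOXO factors with GTAAACA. The windows are chr6:5496229-5496528 for Pdk4, chrX:160138381-160138680 for Pdha1 and chr11:95041322-95041621 for Pdk2.
Pdk4: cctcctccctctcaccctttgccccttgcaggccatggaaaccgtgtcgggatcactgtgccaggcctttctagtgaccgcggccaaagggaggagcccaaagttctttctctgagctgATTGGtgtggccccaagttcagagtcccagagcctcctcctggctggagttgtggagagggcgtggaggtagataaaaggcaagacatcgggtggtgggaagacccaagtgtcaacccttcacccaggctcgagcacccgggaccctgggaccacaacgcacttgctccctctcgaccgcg
Pdha1: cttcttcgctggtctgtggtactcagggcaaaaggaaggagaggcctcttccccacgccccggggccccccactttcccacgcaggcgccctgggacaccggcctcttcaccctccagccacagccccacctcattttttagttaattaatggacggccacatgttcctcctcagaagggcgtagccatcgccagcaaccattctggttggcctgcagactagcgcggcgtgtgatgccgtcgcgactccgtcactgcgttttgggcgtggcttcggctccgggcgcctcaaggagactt
Pdk2: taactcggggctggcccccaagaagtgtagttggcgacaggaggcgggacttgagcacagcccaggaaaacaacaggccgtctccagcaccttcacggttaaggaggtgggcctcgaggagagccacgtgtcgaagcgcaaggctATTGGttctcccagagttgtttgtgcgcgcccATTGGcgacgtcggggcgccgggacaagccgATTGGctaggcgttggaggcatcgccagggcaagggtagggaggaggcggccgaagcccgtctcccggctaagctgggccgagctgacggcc
The Pdk4 window held 1 match, to the CCAAT box on the reverse strand (ATTGG), starting 131 bases upstream of the start site. The Pdk2 window shown held 3 such matches, starting 105, 73 and 42 bases upstream. A second Pdk2 window, chr11:95040826-95041125, is not shown and held no match to the 5 motifs. The Pdha1 window held no match to them either. The CCAAT box, on either strand, was found in 37.4% of all 32851 windows of this length, the GC box in 35.7%, the TATA box in 13.6%, the ERR half-site in 4.72% and the FOXO motif in 3.65%. Among the 9 members with a window, no window held a TATA box, ERR or FOXO match. A match or its absence describes these letters and not binding of a factor.

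By distance between log2 CPM profiles, each centred on its own mean, the genes nearest to Pdk4 among 8293 tested genes with a mean of 10 CPM or more included Chdh, choline dehydrogenase (distance 0.09), and Isoc1 (0.15). Chdh had 30.5 and 84.6 CPM in Olfm4CKO, against 94.3 and 66.9 CPM in Ctrl. Pdha1 was the nearest of the members, at a distance of 0.42 and rank 40, and Dlat stood at rank 778. With 4 libraries per profile these distances describe the libraries and carry no test.

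The partners that complete and modify the complex were measured beside the 10 genes. Dld, the E3 dihydrolipoamide dehydrogenase shared with the other 2-oxoacid dehydrogenases, had 670 and 713 CPM in Olfm4CKO, against 894 and 850 CPM in Ctrl. The Olfm4CKO values were both below the Ctrl values, as for 12.8% of all genes. With a log2 fold change of -0.33 ± 0.35 (SE), Dld did not pass (edgeR adjusted p = 0.9998). Pdpr, the regulatory subunit of the phosphatase, had 72.3 and 166 CPM in Olfm4CKO, against 148 and 100 CPM in Ctrl, with Olfm4CKO replicate 1 lowest, and its log2 fold change was -0.06 ± 0.43 (SE). The listed genes of lipoylation, the pathway behind the lipoic acid carried by Dlat, numbered 3, of which 0 passed in either direction. Lipt2 had 4.91 and 4.58 CPM in Olfm4CKO, against 8.27 and 8.66 CPM in Ctrl (log2 fold change -0.83 ± 0.43 SE, unadjusted p = 0.0783). Lias, lipoic acid synthase, had 60.6 and 61.9 CPM in Olfm4CKO, against 69.1 and 70.3 CPM in Ctrl (-0.19 ± 0.32 SE), and Lipt1 overlapped.

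Genes of pyruvate import and its other fates did not pass either. Of 17 tested members 0 passed in either direction, with 4 above and 13 below 0 and a median log2 fold change of -0.17. Of all genes tested, 51.4% lay below 0. The counts by sign of this and the other lists were not taken with single libraries left out. The monocarboxylate transporter gene Slc16a7 had 10.7 and 10.7 CPM in Olfm4CKO, against 27.7 and 12.6 CPM in Ctrl (-0.91 ± 0.42 SE, unadjusted p = 0.0537). Ldhd, a mitochondrial D-lactate dehydrogenase, and Gpt, an alanine aminotransferase, had log2 fold changes of -0.46 and -0.37. The pyruvate carrier subunits Mpc1 and Mpc2 stood at -0.32 ± 0.36 and 0.01 ± 0.45 (SE). Of 8 genes of the sister 2-oxoacid dehydrogenases and their regulators, 0 passed, 7 lay below 0 and the median was -0.25. Bckdk, the kinase of the branched-chain complex, had 135 and 118 CPM in Olfm4CKO, against 158 and 185 CPM in Ctrl (-0.43 ± 0.34 SE), while Dhtkd1 (0.51) and Ppm1k (-0.36) overlapped.

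Of 12 genes for regulators of Pdk4 transcription, 0 passed in either direction and 9 lay below 0, beside 51.4% of all genes. Their median log2 fold change was -0.18. Klf15, a transcription factor gene induced by glucocorticoids, had 35.3 and 33.8 CPM in Olfm4CKO, against 123 and 55.7 CPM in Ctrl. The groups did not overlap, as for 24.6% of all genes tested. The log2 fold change was -1.37 ± 0.41 (SE, with a 95% interval of -2.28 to -0.47). Its unadjusted edgeR p of 0.00671 was the smallest of the 12 genes, and the edgeR adjusted p was 0.9998. Pparg, the master regulator of fat cells, had 261 and 220 CPM in Olfm4CKO, against 360 and 311 CPM in Ctrl (-0.48 ± 0.35 SE), and Stat5a stood at -0.34.

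Of 14 tested genes that PPAR receptors and fasting induce together with Pdk4, 0 passed and 12 lay below 0, beside 51.4% of all genes. Their median log2 fold change was -0.27. The lipid droplet gene Plin5 had 198 and 164 CPM in Olfm4CKO, against 282 and 287 CPM in Ctrl (-0.65 ± 0.34 SE, unadjusted p = 0.0839). Acot1 (-0.90 ± 0.60 SE) and Lpl, lipoprotein lipase (-0.52 ± 0.43 SE), had overlapping groups. In Olfm4CKO, 7 of the 14 were lower in replicate 1 than in replicate 2, as Pdk4 was, and the rest were higher. A further list with Pdk1 held targets of hypoxia-inducible factors and the factor genes Hif1a (0.01) and Epas1 (0.22). Of its 10 tested genes, 0 passed, 6 lay above 0 and the median was 0.06, with Pfkfb3 at 0.52, Bnip3 at -0.42 and Pgk1 at -0.42.

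**Figure D5:**
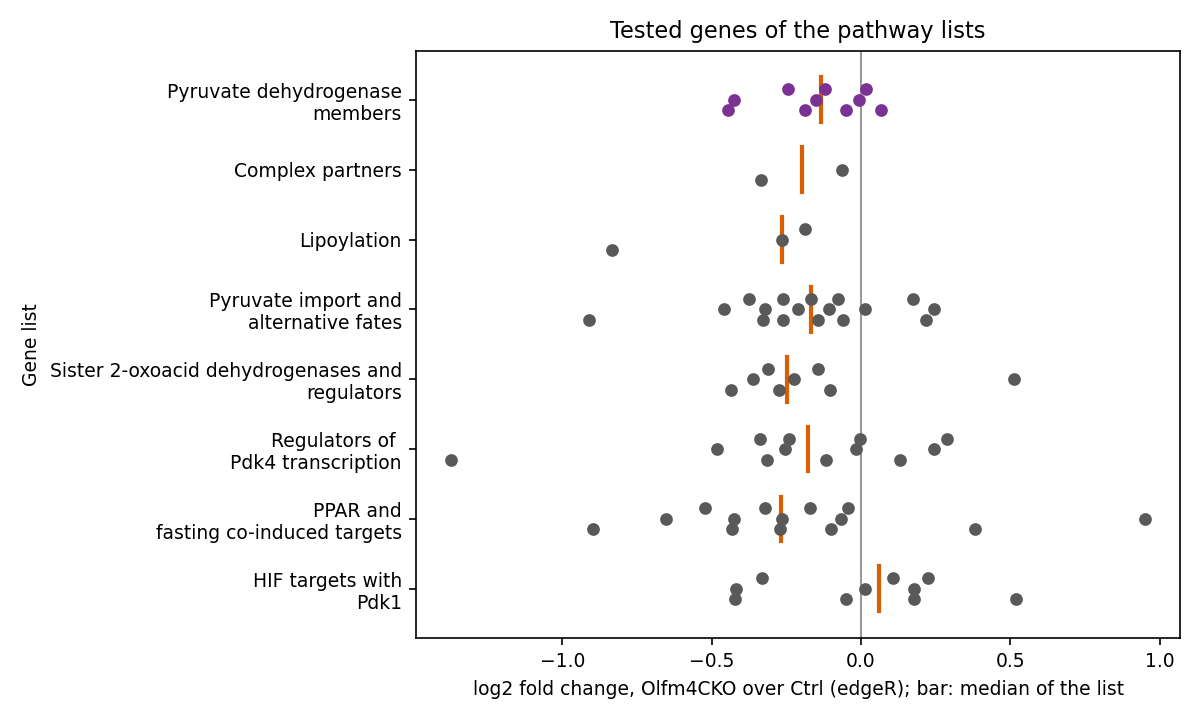
The log2 fold change (Olfm4CKO over Ctrl, edgeR) of every tested gene in the 10-member set (purple) and in each of the 7 pathway lists (grey), with an orange bar at each median. No point marks a gene past the adjusted threshold; the lowest is Klf15 at -1.37, and the medians lie between -0.27 and 0.06.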

How the data were processed

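The authors' deposited table holds raw counts per gene: despite FPKM in its name, its filled values are whole numbers and its columns have different totals. The submitters' processing notes name mm10, cutadapt 1.11, HISAT2 2.1.0 and featureCounts 1.6.0. Annotation and strand setting: not given in the sources used here. Reads of genes that overlap, or are nearly identical, may therefore be shared. The 4 columns used were matched by name. The replicate 3 columns correlated at -0.0209 to -0.0156 (Spearman) with the others and at 0.9677 with each other, and were left out.

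edgeR 4.0.16 under R 4.3.3 was run on the whole table: filterByExpr (minimum count 10, minimum total 15), TMM scaling, and a quasi-likelihood test of group with p adjusted by Benjamini-Hochberg over 13573 genes (threshold 0.05). The SE is the log2 fold change over the square root of F. The pipeline was tested on simulated counts. Levels between genes are CPM per kilobase, where a transcript-per-library scale had been planned. Lengths and positions come from GENCODE vM21 and promoters from RefSeq. The tissue label was checked against 8 brown adipocyte markers. T cell genes summed to 3.29 and 7.82 CPM in Olfm4CKO and 2.57 and 20.4 CPM in Ctrl (4 of 5 in the table), and erythroid genes to 981 and 1682 CPM in Olfm4CKO and 812 and 1357 CPM in Ctrl. The members, lists and motifs were chosen with earlier results of these data known. Named genes are the 10 members, up to 3 genes of the smallest p in each of 7 lists, and the 3 profiles nearest to Pdk4, of which 1 is not reported here. Mpc1, Mpc2, Map3k15, Pdha2 and Olfm4 were named outside that rule, as were Acly, Me1, Pcx, Pkm, Me2, Me3 and Slc16a3. So were Hif1a, Epas1, Xist, the Y-linked genes and the markers. No library was a duplicate: between replicates, chi-square per degree of freedom was 142.9 in Olfm4CKO and 92.6 in Ctrl. Alternatives covered scaling, filter, DESeq2 1.42.0, limma-voom 3.58.1, a replicate block and each library left out.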

Additional observations from a re-analysis of the deposited data

How the results depend on the processing

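None of the 10 genes passed an adjusted p of 0.05 under any of the 12 alternatives (smallest 0.628). Over all genes, 0 passed in the fit on group alone, 1 with DESeq2 and, over the fits that leave out 1 library, 6 to 27. The median log2 fold change of the members ran from -0.35 to 0.059 over those fits. The sign turned in at least 1 of them for 9 of the 10 genes, Pdk2 being the exception. The log2 fold change ran from -1.12 to 0.057 for Pdha1, -0.41 to 0.17 for Pdhb, -0.43 to 0.26 for Dlat, -0.28 to 0.072 for Pdhx, -0.63 to 0.44 for Pdk1, -0.73 to 0.51 for Pdk3, -1.40 to 0.15 for Pdk4, -0.16 to 0.34 for Pdp1 and -0.27 to 0.39 for Pdp2. Without Olfm4CKO replicate 1 it turned from below to above 0 for Pdha1, Dlat, Pdhx, Pdk1 and Pdk4, and stayed above 0 for Pdp1 and Pdp2. A group left with 1 library is assumed there to vary like the other. Pdk1 was 0.0024 with median-ratio scaling in edgeR and with DESeq2, 0.035 with no scaling and 0.016 with mitochondrial transcripts left out; the causes were not tested. Pdk3 had too few counts for the stricter filter. With the replicate number as a block 4 genes passed, none of them a member. Nothing in the labels pairs equal numbers. Their correlation of deviations was 0.003 over 13573 genes, a value over all genes that does not describe single ones. Depth limits Pdk3 and Pdp1, at 21 to 115 counts per library.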

Other observations

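Acly, Me1 and Pcx, 3 genes of pyruvate fate picked after their values were seen, had both replicate 1 libraries below both replicate 2 libraries. Mpc1, Pkm, Me2, Me3 and Slc16a3 of the same list had that order too, and its remaining tested genes did not. Among the pyruvate dehydrogenase genes, Pdhb, Pdhx, Pdk1 and Pdk3 had it and the others did not. The share of all genes with this order was not computed. Over all 13573 genes tested, the correlation of deviations between equal replicate numbers was 0.003, which does not describe single genes. A shared effect of replicate number was not tested for these genes. Acly, ATP citrate lyase, which makes cytosolic acetyl-CoA for fat synthesis, had 1254 and 5652 CPM in Olfm4CKO replicates 1 and 2 and 1463 and 4364 CPM in Ctrl replicates 1 and 2. Me1, the malic enzyme that supplies NADPH for the same synthesis, had 483 and 966 CPM in Olfm4CKO and 369 and 876 CPM in Ctrl. Pcx, pyruvate carboxylase, had 622 and 1121 CPM in Olfm4CKO and 959 and 1132 CPM in Ctrl. Mpc2, a subunit of the mitochondrial pyruvate carrier, had 871 and 441 CPM in Olfm4CKO and 458 and 842 CPM in Ctrl, so its high library was replicate 1 in Olfm4CKO and replicate 2 in Ctrl.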
